A study of Homo sapiens with 22 samples.

Results

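The genes described here are 52 human genes of ribosome biogenesis and the nucleolus, chosen by name for their role, among 37908 genes in the count table. They were chosen with earlier results of these data known, so their counts beside the share of all genes describe the set only. They fall into 5 role groups, with 7 genes of RNA polymerase I transcription, 6 of the small nucleolar ribonucleoproteins (snoRNPs), 18 of small subunit assembly, 14 of large subunit assembly and 7 nucleolar proteins with several roles. Each gene matched 1 identifier in the table, and the lowest raw count of any of them in any library was 94 (PPAN), so all 52 passed the filter on low counts in every comparison.

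Ribosomes are built in the nucleolus, where RNA polymerase I transcribes the ribosomal RNA precursor, snoRNPs guide its chemical modification, and a long series of assembly factors folds, cuts and exports the small and large subunits. The demand for these factors follows cell growth, and many of their genes are textbook targets of MYC, a transcription factor that binds DNA together with MAX at the E-box sequence. Glycogen synthase kinase 3 (GSK3) marks β-catenin, the transcriptional effector of WNT signalling, for destruction, so a GSK3 inhibitor lets β-catenin accumulate. Poly(A)-selected libraries measure the mRNAs of these factors, not ribosomal RNA or the snoRNAs.

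The study asked how activation of β-catenin acts on the transcriptome of cells with and without BRCA2, a protein of homologous recombination. All 22 libraries were made from H1299, a non-small cell lung carcinoma line that expresses an shRNA to BRCA2 when doxycycline (DOX) is added. The name BRCA2-proficient stands for cells that received no DOX, and BRCA2-deficient for those kept in 2 µg/mL DOX for 3 days. In each background, cells transfected with control siRNA (Allstar) or with siβ-catenin, an siRNA against β-catenin, were left without inhibitor or received the GSK3 inhibitor LY2090314 at 250 nM for 24 h. This gives 8 groups, of which BRCA2-proficient untreated and BRCA2-proficient siβ-catenin cells have 2 libraries (replicates 2 and 3) and the other 6 groups have 3. There is no group with DOX but without the shRNA, so an effect of DOX and one of BRCA2 depletion cannot be told apart, and the whole series rests on 1 engineered line.

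Libraries held 18938266 to 29280122 counts, and levels are given as normalised read counts, that is, counts scaled by the size factor that DESeq2 estimated for each of the 22 libraries. The epithelial keratin genes KRT8 and KRT18 and the mesenchymal gene VIM were abundant, with lowest libraries at 2037, 5068 and 12636, whereas the leukocyte gene PTPRC did not exceed 1.57 and CD14 and VWF did not exceed 19.1 and 13.6. BRCA2 was lower in BRCA2-deficient cells in all 4 matched comparisons (log2 changes of -2.67, -2.14, -3.32 and -2.16), and CTNNB1, which encodes β-catenin, was lower with siβ-catenin in all 4 (from -2.12 to -1.68). The WNT target AXIN2 rose with GSK3 inhibition in BRCA2-proficient cells (3.83 ± 0.19, SE) and in BRCA2-deficient cells (4.61 ± 0.22).

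Some BRCA2-proficient libraries transfected with siβ-catenin went against their labels. PDCD4 and YPEL2, a pair of genes chosen after their values were seen, separated the remaining libraries by inhibitor. PDCD4 had 105 to 163 normalised counts in the other libraries labelled with the inhibitor and 1291 to 1920 in the untreated and siβ-catenin libraries other than the BRCA2-proficient siβ-catenin ones. The library labelled BRCA2-proficient GSK3 inhibitor with siβ-catenin replicate 2 had 1998, against 105 and 109 in its replicates 1 and 3. The library labelled BRCA2-proficient siβ-catenin replicate 2 had 291, and replicate 3 of that group had 1056. YPEL2 gave the same order, with 304 in the former library, 35.3 and 126 in the latter pair, 9.02 to 44.3 in the other inhibitor libraries and 232 to 368 in the others. CTNNB1 was between 1642 and 2185 in all 5 libraries of these 2 groups, and between 977 and 2217 in the BRCA2-deficient libraries with siβ-catenin. The reason was not tested, and every comparison that uses these groups is given with and without the libraries numbered 2. For siβ-catenin alone in BRCA2-proficient cells and for BRCA2 status with siβ-catenin, values without replicate 3 are also given.

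Promoter sequence was not used to choose the genes. The set serves as a readout of growth and MYC activity, however, and MYC binds the E-box. The share of members with an E-box is therefore not independent of the choice. The canonical E-box, CACGTG, which reads the same on both strands, was searched in RefSeq promoter windows of 300 bases (250 before and 50 after each start, build GRCh38.p14). Of 44 members with a window, 19 held it (43.2%), against 8.77% of all 27305 genes with a window and 31.6% of 76 other ribosome biogenesis genes. By window, 20 of 54 member windows (37%) and 7.26% of all 35116 windows held it. Members without a matched window were POLR1E, TCOF1, NOP58, NOLC1, RRP12, BOP1, RRS1 and DDX18. By role, the E-box was present in 8 of 17 small subunit genes, 5 of 11 large subunit genes, 4 of 7 multifunctional nucleolar genes, 2 of 4 snoRNP genes and 0 of 5 RNA polymerase I genes. Of 21 E-boxes, 17 began within 50 bases of the start. The lines below show the E-box in capitals with 12 bases on each side, 5′ to 3′ on the strand of the gene, for members whose values by library are described further on. NOP2, with its E-box at base 36, and a second E-box of EBNA1BP2 at base 43 lie too near the window end for 12 bases on each side and are not shown. The E-box begins at base 7 after the start in FBL (minus strand, chr19:39846356-39846385), at base 16 in NOP14 (minus strand, chr4:2963374-2963403), and at bases -31 in DDX21 (plus strand, chr10:68956604-68956633), -64 in LYAR (minus strand, chr4:4290068-4290097) and -237 in EBNA1BP2 (minus strand, chr1:43172790-43172819).
FBL: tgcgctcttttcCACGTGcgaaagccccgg
NOP14: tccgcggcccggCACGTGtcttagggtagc
DDX21: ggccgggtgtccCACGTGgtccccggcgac
LYAR: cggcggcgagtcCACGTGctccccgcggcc
EBNA1BP2: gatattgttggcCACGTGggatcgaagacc
A match describes these letters only and is not evidence that a factor binds there. With GSK3 inhibition, the median log2 change was 1.18 for the 19 members with the E-box and 0.97 for the 25 without it in BRCA2-proficient cells, and 1.09 against 0.88 in BRCA2-deficient cells, both given as descriptions.

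Levels among the 52 genes spanned a wide range. Together they held 0.96% of all counts, from 0.623% to 1.32% by library. NPM1 and NCL, which encode the abundant nucleolar proteins nucleophosmin and nucleolin, had mean normalised counts of 33152 and 25840 over the 22 libraries, and PPAN, a large subunit factor, had the lowest mean at 226. Per kilobase of exon, the levels were highest for FBL (4302), which encodes the rRNA methyltransferase of box C/D snoRNPs, NPM1 (3989) and NCL (2897), and lowest for DDX10 (61.1), a helicase of small subunit assembly, and PPAN (78.1). A share of 17.3% of the members (9 of 52, holding 25 snoRNAs) contain annotated snoRNAs within their boundaries, against 2.59% of 13162 protein-coding genes with a mean of at least 10 counts. Annotated exons of several members overlap those of a protein-coding neighbour (NOC2L with SAMD11, NIP7 with COG8, NOP16 with ARL10 and HIGD2A, PPAN with the PPAN-P2RY11 readthrough). How the counting treated strand is not given in the sources used here, so the counts of these members may include reads of that neighbour.

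**Figure D1:**
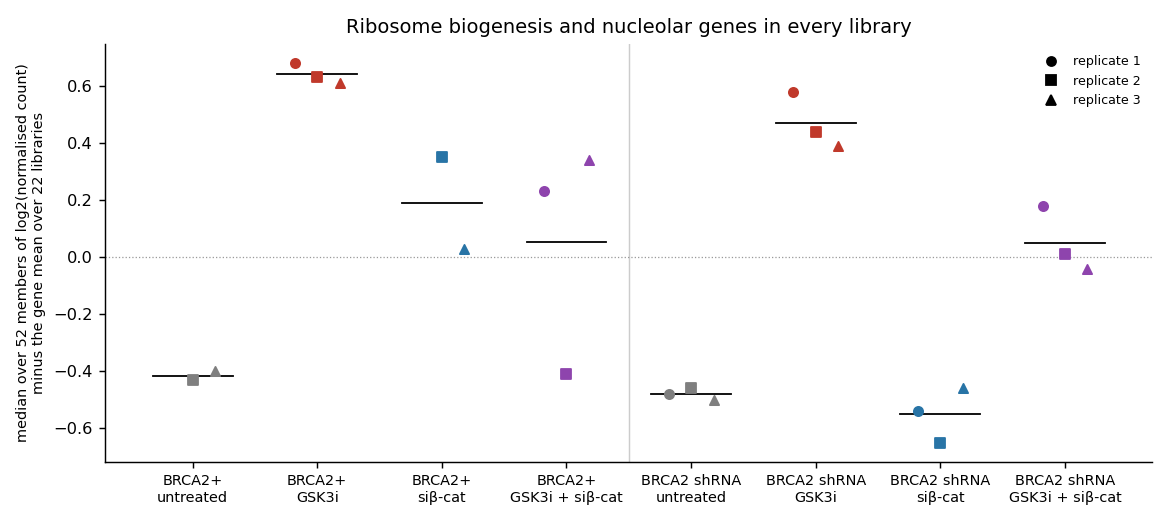
Each point is a library, and its height is the median over the 52 members of log2(normalised count) minus the mean of that gene over all 22 libraries. Horizontal bars are group means, marker shapes are replicate numbers, and BRCA2+ and BRCA2 shRNA stand for BRCA2-proficient and BRCA2-deficient cells. The 6 libraries with GSK3 inhibitor and control siRNA lie between 0.39 and 0.68, and the 5 untreated libraries between -0.50 and -0.40.

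GSK3 inhibition raised nearly the whole set in both backgrounds. In BRCA2-proficient cells with control siRNA, 50 of the 52 members were called higher (DESeq2, Benjamini-Hochberg adjusted p under 0.05 and a log2 change beyond 0.5) and 0 lower, against 11.8% of all genes tested called higher. Their median log2 change was 1.08, and the range was 0.02 to 1.81. In BRCA2-deficient cells 49 were called higher and 0 lower, against 11.6% of all genes, with a median of 0.98 and a range of -0.01 to 1.67. The share of all counts held by the 52 genes was 0.765% and 0.766% in the untreated BRCA2-proficient libraries and 1.31% to 1.32% with inhibitor, and 0.71% to 0.717% against 1.14% to 1.27% in BRCA2-deficient cells. Scaling by total counts moved the median of all genes to -0.13 in the BRCA2-proficient comparison, the members' median to 0.95 and their calls to 46 out of 52.

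The calls were largely shared. Between the backgrounds 48 members were called in both, NPM1 and WDR75 in BRCA2-proficient cells alone, RRN3 in BRCA2-deficient cells alone, and UBTF in neither. No member differed between the backgrounds in a DESeq2 test of the interaction between BRCA2 status and inhibitor, in which 2 members had an unadjusted p under 0.05, edgeR called 0 and 0.0345% of all genes were called. Leaving out single libraries gave 50 or 51 calls in BRCA2-proficient cells and 46 to 48 in BRCA2-deficient cells. A stricter test, against a log2 change of 0.5 in place of 0, left 38 and 24 of these members called.

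Among the RNA polymerase I genes, 5 of 7 were called higher in BRCA2-proficient and 6 of 7 in BRCA2-deficient cells, with medians of 0.90 and 0.97. TCOF1 (treacle, a nucleolar cofactor of RNA polymerase I, chr5:149737192-149779871 on GRCh37) had 5448 and 5942 normalised counts in the untreated BRCA2-proficient libraries and 10875, 10452 and 10784 with inhibitor. In BRCA2-deficient cells it had 3953, 3502 and 5023 without and 10734, 9547 and 10758 with inhibitor. Its log2 changes were 0.90 ± 0.12 (adjusted p = 1.94e-12) and 1.31 ± 0.18 (3e-11), and the groups were apart in both backgrounds. POLR1A (chr2:86247339-86333278), which encodes the largest catalytic subunit, went from 3122 and 3158 to 4362, 5208 and 5464 in BRCA2-proficient cells, and from 2836, 3170 and 3848 to 4644, 4827 and 6412 in BRCA2-deficient cells. These changes (0.66 ± 0.14 and 0.69 ± 0.20, adjusted p = 2.01e-05 and 0.00341) were below the median of the set. The rDNA architecture factor UBTF stood apart, with 4354 and 4522 normalised counts untreated and 4538, 4401 and 4661 with inhibitor in BRCA2-proficient cells. Its log2 change was 0.02 ± 0.12 in BRCA2-proficient cells (adjusted p = 0.937) and -0.01 ± 0.14 in BRCA2-deficient cells (0.958). RRN3, the initiation factor that brings the polymerase to the promoter, was near the threshold in both backgrounds (0.48 ± 0.16 and 0.53 ± 0.18, adjusted p = 0.0103 and 0.0128).

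All 6 snoRNP genes were called higher in both backgrounds, with medians of 0.94 and 0.90. DKC1 (dyskerin, the pseudouridine synthase of box H/ACA snoRNPs, chrX:153991017-154005964) had 8699 and 8391 normalised counts untreated and 16577, 16193 and 15696 with inhibitor in BRCA2-proficient cells. The BRCA2-deficient libraries had 7923, 8116 and 8503 without and 16464, 14913 and 13708 with inhibitor. Both changes were close to the group median (0.90 ± 0.12 and 0.88 ± 0.14, adjusted p = 2.84e-13 and 1.27e-08). FBL (chr19:40325098-40337019) rose less, from 8702 and 8096 to 14224, 13503 and 11328 in BRCA2-proficient cells (0.62 ± 0.14, adjusted p = 6.87e-05). In BRCA2-deficient cells FBL went from 7784, 7285 and 5635 to 13929, 10280 and 8911 (0.68 ± 0.22, adjusted p = 0.00988).

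The small subunit factors were called higher for 18 of 18 genes in BRCA2-proficient and 17 of 18 in BRCA2-deficient cells, with medians of 1.11 and 0.98. RRP12 (chr10:99116115-99185833), a pre-ribosome export factor, had the largest change of this group in BRCA2-proficient cells, from 1427 and 1600 to 4109, 4161 and 3841 (1.40 ± 0.13, adjusted p = 1.12e-24). NOP14 (chr4:2939660-2965133), a component of the small subunit processome, went from 3585 and 3873 to 7315, 7561 and 7200 in BRCA2-proficient cells. With BRCA2 depleted its 3631, 3535 and 3354 became 7500, 6587 and 6520, and the 2 changes were alike in size (0.97 ± 0.12 and 0.97 ± 0.14, adjusted p = 6.55e-14 and 1.14e-10). TSR1 (chr17:2225690-2239951), a GTPase-like factor of late small subunit maturation, rose from 2695 and 2668 to 5956, 6294 and 6031 (1.17 ± 0.12, adjusted p = 1.97e-20) and from 2400, 2435 and 2586 to 5233, 5840 and 5303 (1.14 ± 0.13, adjusted p = 1.23e-15). WDR75, the member of this group that was not called in BRCA2-deficient cells, changed there by 0.49 ± 0.15 (adjusted p = 0.00527), just under the limit on size, and by 0.61 ± 0.13 in BRCA2-proficient cells.

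Large subunit factors had the highest median of the 5 role groups in both backgrounds (1.23 and 1.08), and all 14 were called higher in each. RRS1 (chr8:67341249-67342968), which helps bring 5S ribosomal RNA into the pre-ribosome, had 1632 and 1822 normalised counts untreated and 7291, 5720 and 5358 with inhibitor in BRCA2-proficient cells. This was the largest increase of any member there (1.81 ± 0.16, adjusted p = 2.44e-28). In BRCA2-deficient cells RRS1 went from 1897, 1604 and 1779 to 4972, 3706 and 4201 (1.28 ± 0.17, adjusted p = 7.26e-12). NOP16 (chr5:175810949-175815928), a nucleolar large subunit factor, had the largest increase in BRCA2-deficient cells, from 1097, 944 and 935 to 4076, 2810 and 2620 (1.67 ± 0.21, adjusted p = 2.28e-13). In BRCA2-proficient cells NOP16 went from 1017 and 1080 to 4040, 3609 and 3246 (1.78 ± 0.14, adjusted p = 6.65e-33). NOP2 (chr12:6666029-6677857), an rRNA cytosine methyltransferase, rose from 2690 and 3172 to 8892, 7859 and 7846 (1.47 ± 0.13, adjusted p = 2.89e-25). Its BRCA2-deficient values were 3277, 3051 and 3194 without and 8845, 7907 and 7482 with inhibitor (1.35 ± 0.14, adjusted p = 1.59e-19). EBNA1BP2 (chr1:43629846-43736607), a nucleolar large subunit factor, went from 5311 and 4823 to 8249, 7338 and 7058 in BRCA2-proficient cells (0.56 ± 0.13, adjusted p = 0.000134). In BRCA2-deficient cells EBNA1BP2 went from 4769, 4181 and 3468 to 7817, 5649 and 5251 (0.59 ± 0.21, adjusted p = 0.0222). Its groups were apart in both, and both changes were below the median of the role group. NOC2L (chr1:879583-894689), which works with other NOC proteins in large subunit transport, rose from 4172 and 4180 to 8588, 7925 and 7716 (0.94 ± 0.12, adjusted p = 6.32e-13) and from 4365, 3680 and 3693 to 8052, 6393 and 7053 (0.87 ± 0.16, adjusted p = 1.92e-06).

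The multifunctional nucleolar genes were called higher for 7 of 7 and 6 of 7 members, with medians of 0.97 and 0.93. NCL (chr2:232318242-232348352) had 22227 and 20715 normalised counts untreated and 39714, 38410 and 38784 with inhibitor in BRCA2-proficient cells (0.84 ± 0.11, adjusted p = 7.49e-12). In BRCA2-deficient cells its 17708, 17594 and 17685 became 36725, 33401 and 30712 (0.93 ± 0.14, adjusted p = 4.18e-10). NPM1 (chr5:170814120-170838814) went from 32020 and 30759 to 46948, 46242 and 49453 in BRCA2-proficient cells (0.58 ± 0.11, adjusted p = 3.87e-06). In BRCA2-deficient cells its inhibitor libraries were spread, at 47141, 35588 and 32076 against 31443, 29598 and 25867, and the change of 0.40 ± 0.19 was not called (adjusted p = 0.104). NPM1 has pseudogene copies, so its counts depend on how the authors' counting assigned reads shared with them. DDX21 (chr10:70715891-70744824), an RNA helicase that links polymerase I transcription with rRNA processing, rose from 5166 and 5764 to 11128, 13473 and 14855 (1.25 ± 0.15, adjusted p = 1.92e-15) and from 2566, 3650 and 4572 to 7565, 10607 and 10002 (1.38 ± 0.24, adjusted p = 2.13e-07).

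**Figure D2:**
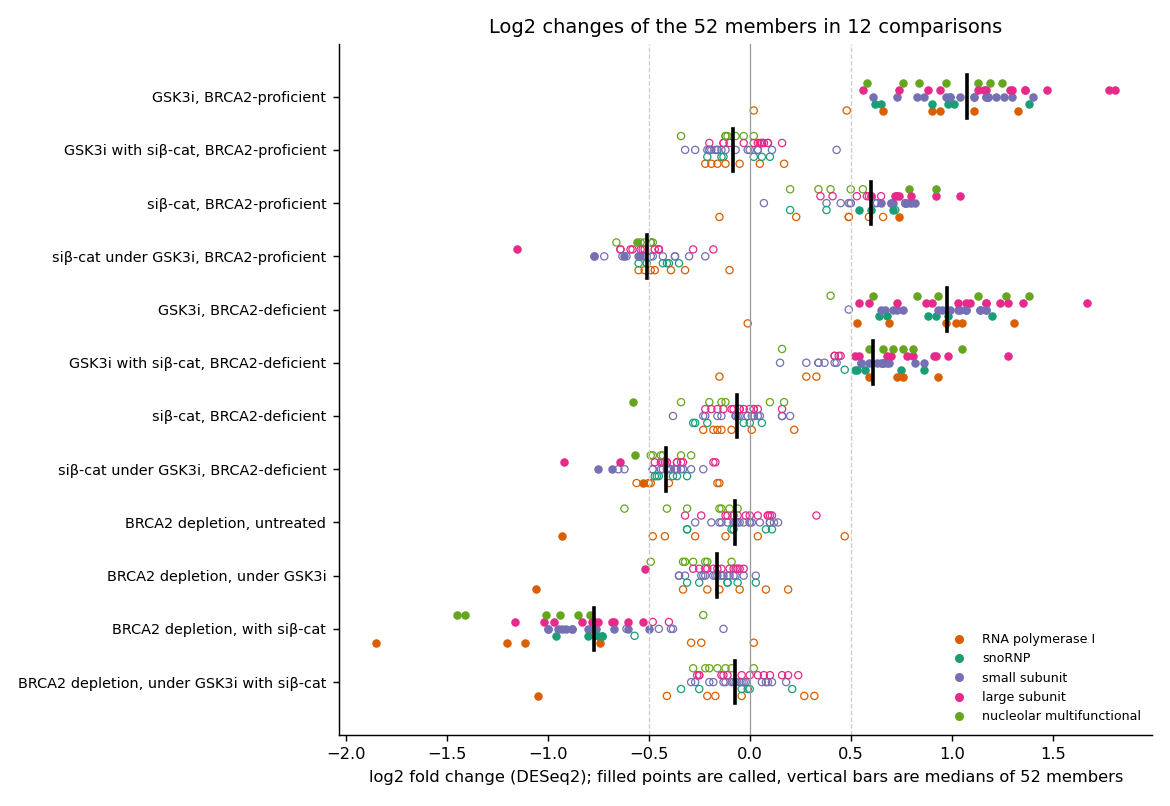
The horizontal axis is the DESeq2 log2 fold change of each of the 52 members in 12 comparisons, coloured by role group, with filled points for called members, a black bar for the median and dashed lines at -0.5 and 0.5. Both comparisons of GSK3 inhibition with control siRNA have medians near 1 (1.08 and 0.98), and BRCA2 depletion with siβ-catenin has its median at -0.77.

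In BRCA2-deficient cells, most of the set still rose with the inhibitor when β-catenin was depleted, with smaller fitted changes. The WNT target AXIN2 was also still called higher with inhibitor under siβ-catenin (0.98 ± 0.27, adjusted p = 0.00258). With siβ-catenin, 36 of the 52 members were called higher and 0 lower with GSK3 inhibitor, against 8.56% of all genes called higher, and their median log2 change was 0.61. Of the 49 members called with control siRNA, 35 were also called with siβ-catenin and 14 were not, and NPM1 was called with siβ-catenin alone. The change was smaller with siβ-catenin than with control siRNA for 51 of 52 members, with NPM1 as the exception. In the fit of that difference, the median over all genes was -0.00. The difference was below 0 for 77 of 84 other ribosome biogenesis genes (median -0.24). For 71 of 78 cytosolic ribosomal protein genes it was above 0 (median 0.15). In a test of that difference, 1 member was called, BOP1, a large subunit factor that works with PES1 and WDR12 (-0.80 on the log2 scale). At an unadjusted p under 0.05 there were 18 members, edgeR called 0, and 0.337% of all genes were called lower. With the replicate number as a block 5 members were called in that test (BOP1, DDX21, RRP12, RRS1 and WDR3). The call of BOP1 was lost under most alternatives, including the fit without a filter on low counts (adjusted p = 0.0505).

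By role, the calls with siβ-catenin were 4 of 7 for RNA polymerase I, 5 of 6 for snoRNPs, 11 of 18 for the small subunit, 10 of 14 for the large subunit and 6 of 7 for multifunctional genes. NOP16 had 979, 798 and 1179 normalised counts with siβ-catenin and 2964, 2069 and 2093 when the inhibitor was added, the largest increase of the set (1.28 ± 0.20, adjusted p = 2.05e-08). LYAR (chr4:4269428-4291881), a nucleolar zinc finger protein, went from 1711, 1427 and 1924 to 3859, 3273 and 3323 (1.05 ± 0.16, adjusted p = 9.63e-09). NOP2 went from 3148, 2676 and 3362 to 6549, 6180 and 5285 (0.98 ± 0.16, adjusted p = 2.84e-08). RRS1, in contrast, had 1790, 1355 and 1925 without and 2639, 2044 and 2155 with inhibitor and was not called (0.44 ± 0.18, adjusted p = 0.0619). Against a log2 change of 0.5 in place of 0, 2 members stayed called.

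The same question in BRCA2-proficient cells runs into the libraries that go against their labels. Between the libraries labelled GSK3 inhibitor with siβ-catenin and those labelled siβ-catenin, 0 of 52 members were called by DESeq2 or by edgeR, 0 had an unadjusted p under 0.05, and 0.0529% of all genes were called. The median log2 change was -0.09. RRS1 had 3117, 1488 and 3567 normalised counts in replicates 1, 2 and 3 with inhibitor and 2823 and 2460 in replicates 2 and 3 without. NOP16 had 2908, 1179 and 2796 against 2684 and 1651. In both genes replicate 2 of the inhibitor group was the lowest library, and replicate 2 of the siβ-catenin group was above replicate 3. Without either replicate 2 alone the count stayed at 0, with medians of 0.13 and 0.10. With both left out, which leaves 2 libraries against 1, the median was 0.27. Calls are not given for that fit, since the lone library has no spread of its own. In a test of the difference between the inhibitor's effect with siβ-catenin and with control siRNA, 44 members were called lower and 0 higher, against 3.77% of all genes called lower, with a median of -1.15. That count was 3 without replicate 2 of the siβ-catenin group, 46 without replicate 2 of the group with both, 35 without the pair (median -0.75), 7 and 5 without untreated replicate 2 or 3, 20 without GSK3 inhibitor replicate 2, and 0 in edgeR.

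Read at face value, siβ-catenin alone raised 22 of the 52 members and lowered 0 in BRCA2-proficient cells, against 1.01% of all genes called higher, with a median log2 change of 0.60. NOP16 (1.04 ± 0.26, adjusted p = 0.00597) rose from 1017 and 1080 to 2684 and 1651. DDX21 (0.92 ± 0.24, adjusted p = 0.00818) rose from 5166 and 5764 to 12619 and 8238. NIP7 (chr16:69371899-69377009), a late large subunit factor, rose from 1207 and 1108 to 2623 and 1799 (0.92 ± 0.23, adjusted p = 0.00714). In each of these, replicate 2 of the siβ-catenin group, the library whose PDCD4 and YPEL2 were low, was the higher one. The count was 12 without that library, 43 without replicate 3, and 0 without either untreated library, and edgeR called 0.

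In BRCA2-deficient cells, where no library went against its label, siβ-catenin without inhibitor left the set close to its untreated level. There, 1 member was called lower and 0 higher, with a median log2 change of -0.07 and 0.82% of all genes called lower. The member was NPM1, which had 31443, 29598 and 25867 normalised counts with control siRNA and 20828, 20331 and 16677 with siβ-catenin (-0.58 ± 0.15, adjusted p = 0.0108). The call was lost in edgeR (adjusted p = 0.145) and without each of 3 single libraries (0.0722 to 0.186).

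In the presence of the inhibitor, all 52 fitted changes with siβ-catenin were below 0 in both backgrounds. Few were called in the fits without a replicate block. The sign was shared by all 78 cytosolic ribosomal protein genes tested and by 82 (BRCA2-proficient) and 81 (BRCA2-deficient) of 84 other ribosome biogenesis genes. In BRCA2-deficient cells 6 members were called lower (BOP1, DDX10, GNL3, RRS1, TCOF1 and WDR3), against 2.57% of all genes, and the median was -0.42. RRS1 fell from 4972, 3706 and 4201 to 2639, 2044 and 2155 (-0.92 ± 0.18, adjusted p = 2.22e-05). DDX10 (chr11:108535785-108811726) fell from 1727, 1620 and 1535 to 1120, 1035 and 758 (-0.75 ± 0.18, adjusted p = 0.00202). WDR3 (chr1:118472343-118509166), a small subunit processome protein, fell from 2188, 2405 and 2586 to 1521, 1517 and 1450 (-0.68 ± 0.13, adjusted p = 3.89e-05). With the replicate number as a block NOC4L, POLR1B and UTP20 were called as well (9 members), edgeR called 2, and leaving out single libraries gave 3 (without BRCA2-deficient GSK3 inhibitor replicate 2) to 15 (without replicate 1 of the group with siβ-catenin and inhibitor).

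In BRCA2-proficient cells 6 members were called lower with siβ-catenin under the inhibitor (DDX10, NCL, NOB1, NOC4L, RRP12 and RRS1), against 1.92% of all genes, with a median of -0.51. RRS1 fell from 7291, 5720 and 5358 to 3117, 1488 and 3567 (-1.15 ± 0.28, adjusted p = 0.00205). DDX10 fell from 1827, 1806 and 1705 to 1162, 737 and 1175, and RRP12 from 4109, 4161 and 3841 to 2546, 1681 and 2785, both by 0.77 on the log2 scale (adjusted p = 0.00378 and 0.00387). The library labelled replicate 2 was the lowest in each. Without it 5 members were called and the median was -0.31. With the replicate number as a block 26 were called, including all 6, and edgeR called 0. Leaving out BRCA2-proficient GSK3 inhibitor replicate 1 or 2 gave 3 and 1, and leaving out replicate 3 with siβ-catenin and inhibitor gave 18. No member differed between the backgrounds in this effect (0 called by DESeq2 and edgeR, 0 at an unadjusted p under 0.05, 0.0057% of all genes called), and the count was also 0 without the library labelled replicate 2.

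**Figure D3:**
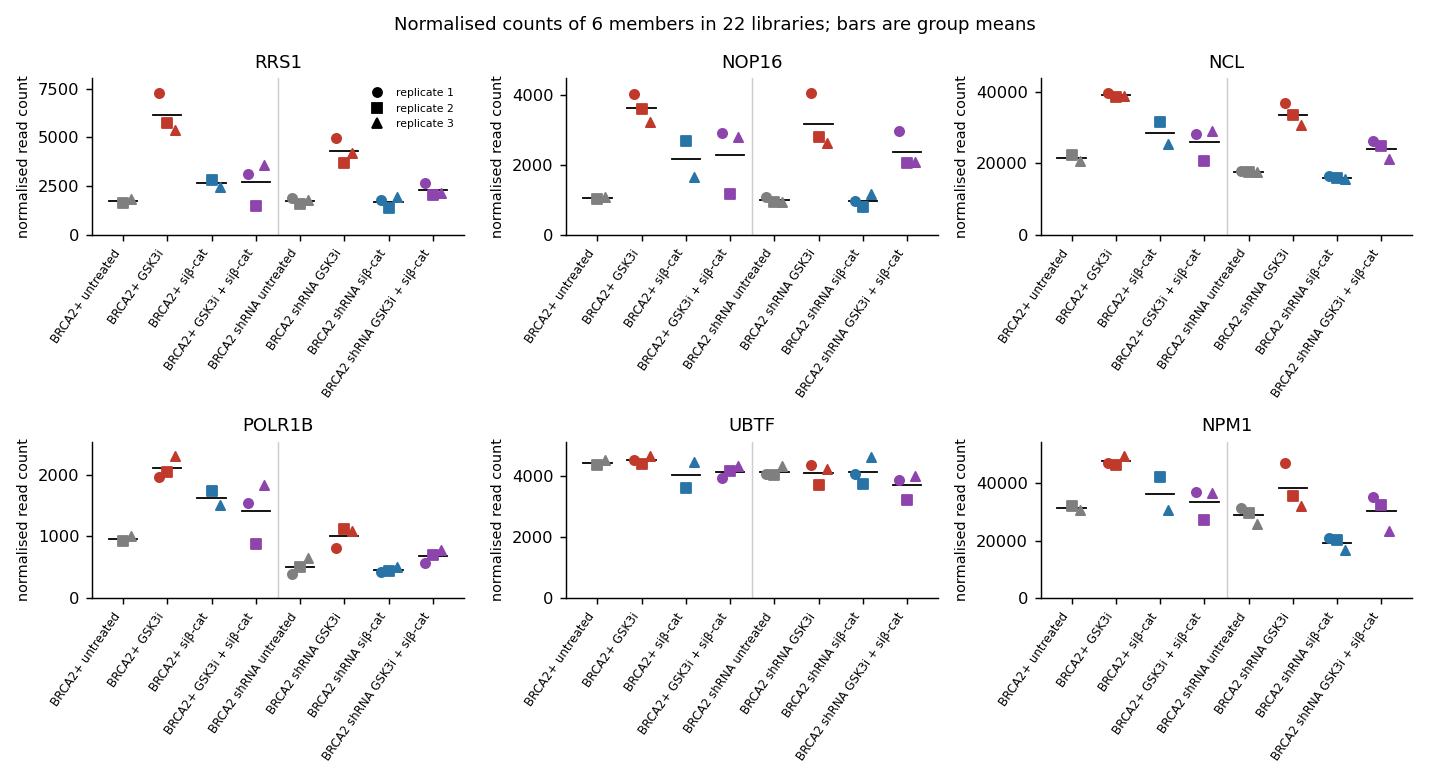
Normalised read counts of RRS1, NOP16, NCL, POLR1B, UBTF and NPM1 in all 22 libraries, with a linear vertical axis from 0, bars at group means and marker shapes for replicate numbers. RRS1 reaches 7291 with inhibitor in BRCA2-proficient cells, UBTF stays between 3232 and 4661 throughout, and POLR1B is lower in BRCA2-deficient cells in all 4 matched pairs of groups.

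In 3 of the 4 comparisons of BRCA2 status few members were called, and POLR1B was among them each time. POLR1B (chr2:113299492-113337395) encodes the second largest subunit of RNA polymerase I. In untreated cells POLR1B had 926 and 1000 normalised counts in BRCA2-proficient and 388, 509 and 643 in BRCA2-deficient libraries (-0.93 ± 0.25, adjusted p = 0.00471). Under the inhibitor it had 1965, 2033 and 2299 against 818, 1127 and 1081 (-1.06 ± 0.18, adjusted p = 3.5e-07). With siβ-catenin it had 1738 and 1508 against 423, 441 and 511 (-1.85 ± 0.18, adjusted p = 4.46e-21). With siβ-catenin and inhibitor it had 1541, 872 and 1827 against 577, 702 and 780 (-1.05 ± 0.26, adjusted p = 0.00241). The groups did not overlap in any of the 4, and POLR1B was the sole member called in all of them. How many of all genes do the same was not counted. The call in untreated cells was lost in edgeR (adjusted p = 0.0715) and without either BRCA2-proficient library (0.169 and 0.287) or BRCA2-deficient replicate 2 (0.0523), with log2 changes of -0.88 to -0.99. The inhibitor raised POLR1B in both backgrounds (1.11 ± 0.14 and 0.97 ± 0.23), and its 818 to 1127 with inhibitor in BRCA2-deficient cells spanned the 926 and 1000 of untreated BRCA2-proficient cells. With siβ-catenin and inhibitor the call was lost in edgeR (0.0604) and without BRCA2-proficient replicate 3 of that group (0.0501). POLR1F, also a gene of RNA polymerase I, is not a member but one of 84 other ribosome biogenesis genes tested. POLR1F is named because it had the largest called decrease of that list in each of the 4 comparisons. Its changes, in the same order, were -1.12 ± 0.19, -1.33 ± 0.17, -1.87 ± 0.19 and -1.35 ± 0.23. Its DESeq2 adjusted p lay between 1.71e-20 and 1.49e-06. Of those 84 genes, 1, 2, 46 and 2 were called lower and 0 higher, against 4.14%, 3.05%, 13.8% and 4.36% of all genes called lower. A count of 1 or 2 of 84 is below the share of all genes.

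Without siβ-catenin, the other members differed little by BRCA2 status. In untreated cells POLR1B was the 1 member called lower of 52, against 4.14% of all genes, with a median of -0.07. Without BRCA2-deficient untreated replicate 3 there were 4 calls, 3 lower and 1 higher. Under the inhibitor 2 were called lower, POLR1B and RRS1, against 3.05% of all genes, with a median of -0.16. RRS1 (7291, 5720 and 5358 against 4972, 3706 and 4201) changed by -0.52 ± 0.17 (adjusted p = 0.0314), a call lost in edgeR (0.0973) under scaling by total counts (0.0648) and without each of 4 single libraries. A count of 1 or 2 of 52 is near the share of all genes called lower in these comparisons.

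With siβ-catenin, 40 of 52 members were called lower in BRCA2-deficient than in BRCA2-proficient cells and 0 higher, against 13.8% of all genes called lower, with a median of -0.77. DDX21 had 12619 and 8238 normalised counts in the libraries labelled BRCA2-proficient siβ-catenin and 3651, 3734 and 4200 in the BRCA2-deficient ones (-1.45 ± 0.22, adjusted p = 7.96e-10). LYAR had 4990 and 3866 against 1711, 1427 and 1924 (-1.41 ± 0.20, adjusted p = 2.57e-10). The BRCA2-proficient arm consists of the 2 libraries whose PDCD4 and YPEL2 levels lie below those of other libraries without inhibitor, and replicate 2 was the higher in both genes. Without replicate 2, 32 members were called with a median of -0.62, and without replicate 3, 47 with a median of -0.90. With siβ-catenin and inhibitor together, 1 member was called lower, POLR1B, against 4.36% of all genes, with a median of -0.07. Without the BRCA2-proficient library labelled replicate 2 of that group, 5 were called and the median was -0.28. Without BRCA2-proficient replicate 1 or 3 the median turned to 0.01 and 0.07, and without replicate 3 no member was called.

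**Figure D4:**
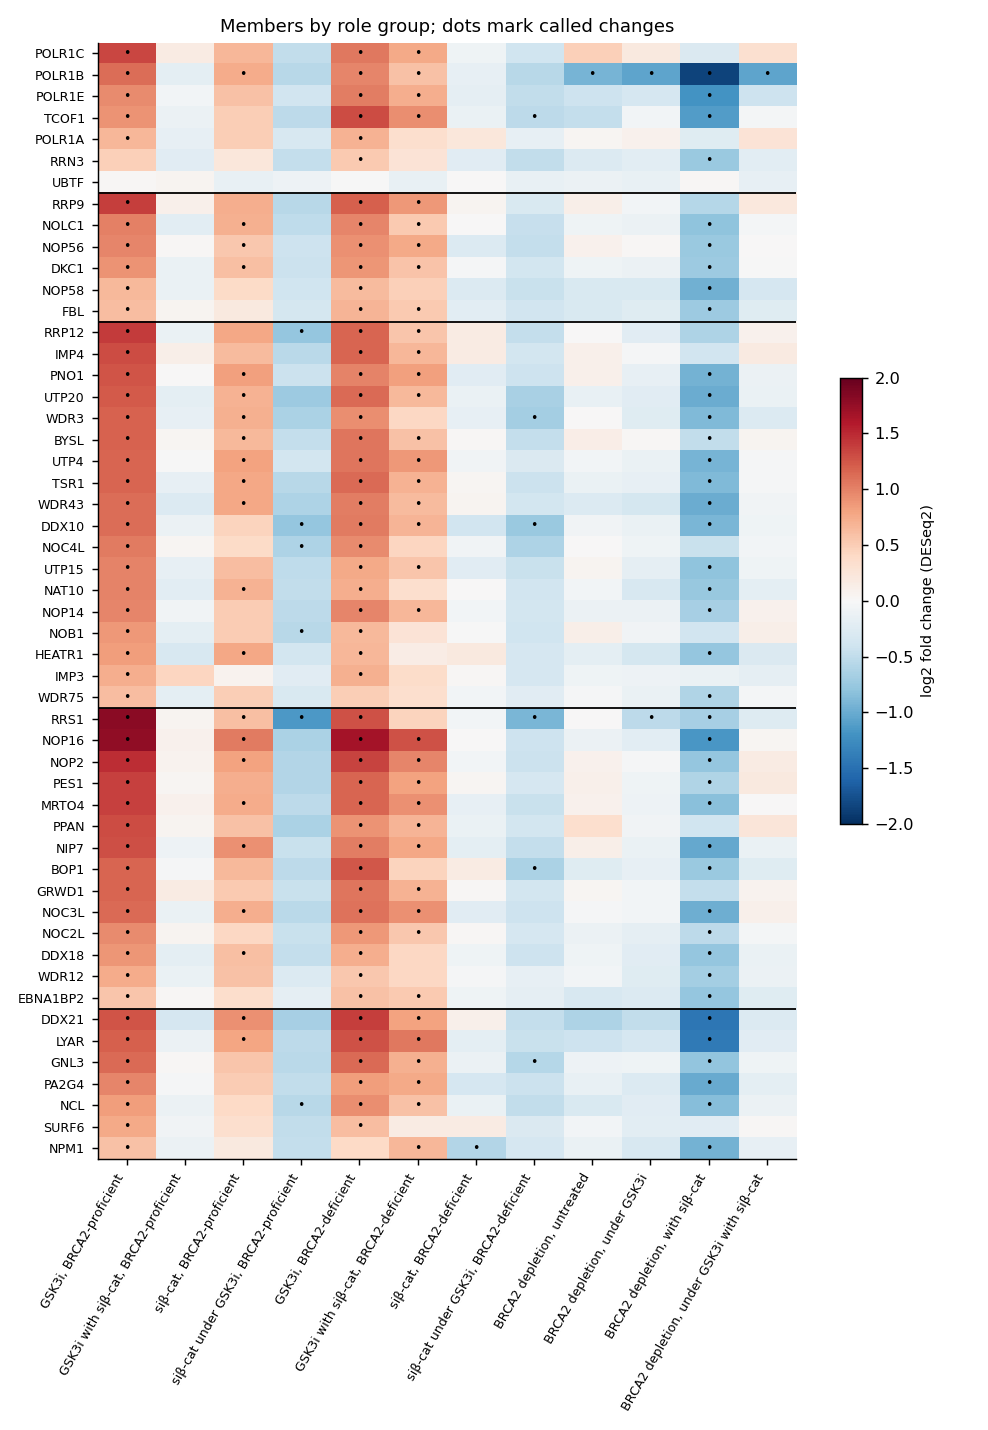
Log2 fold changes (DESeq2) of the 52 members, one row each and ordered by role group, in 12 comparisons, with dots for called changes. The columns of GSK3 inhibition with control siRNA are red in nearly every row except UBTF (0.02 and -0.01), and the 4 BRCA2 depletion columns share a dot in the row of POLR1B alone.

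Other gene lists of ribosome production and of MYC were counted in the same comparisons, in which 11.8% (BRCA2-proficient) and 11.6% (BRCA2-deficient) of all genes were called higher. Of 84 other ribosome biogenesis genes, 60 were called higher and 0 lower with GSK3 inhibition in BRCA2-proficient cells (median 0.76), and 54 and 0 in BRCA2-deficient cells (0.61). The largest increase there was DHX37 in BRCA2-proficient cells (1.63 ± 0.13). Of 78 cytosolic ribosomal protein genes, 7 and 2 were called higher and 0 lower, a smaller share than of all genes, with medians of 0.36 and 0.14. Of 21 RNA polymerase III genes, which make tRNA and 5S ribosomal RNA, 10 were called higher and 1 lower in BRCA2-proficient cells and 8 and 1 in BRCA2-deficient cells. Of 30 MYC target genes outside the nucleolus, 22 were called higher and 0 lower in each background, with medians of 0.73 and 0.69. With siβ-catenin and inhibitor in BRCA2-deficient cells, where 8.56% of all genes were called higher, the counts were 31 of 84, 2 of 78, 4 of 21 and 19 of 30, in the same order.

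MYC mRNA itself was not called higher in any of the 12 comparisons. MYC had 3969 and 5700 normalised counts in untreated BRCA2-proficient cells and 5694, 4121 and 4375 with inhibitor (-0.05 ± 0.18, adjusted p = 0.872). In BRCA2-deficient cells it had 4664, 4779 and 5195 without and 4434, 3489 and 4244 with inhibitor (-0.27 ± 0.16, adjusted p = 0.202). With siβ-catenin in BRCA2-deficient cells it fell from 4614, 3706 and 4981 to 2568, 2192 and 2488 when the inhibitor was added (-0.87 ± 0.16, adjusted p = 2.58e-06), in the same libraries in which 36 of the 52 members were called higher. Under the inhibitor in BRCA2-deficient cells, MYC was called lower with siβ-catenin than with control siRNA (-0.75 ± 0.16, adjusted p = 0.000116). There, all 52 fitted member changes were below 0, and 6 members were called lower against 2.57% of all genes. MYC was also called lower for BRCA2 status with siβ-catenin and inhibitor (-0.70 ± 0.17, adjusted p = 0.00106). In that comparison 1 member was called lower, against 4.36% of all genes. MYC mRNA does not give the level of MYC protein, which these libraries do not measure. By immunoblot, the study reported less MYC protein after β-catenin depletion in BRCA2-deficient H1299 cells that received the inhibitor.

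Several partners of MAX that repress E-box genes fell. Of 9 genes of the MYC network tested, 4 were called lower with GSK3 inhibition and 0 higher in each background, where 14.2% and 13.8% of all genes were called lower. MXD4 changed by -2.41 ± 0.17 and -2.13 ± 0.20 (adjusted p = 2.68e-44 and 4.68e-24), and MXI1 by -1.23 ± 0.18 and -1.20 ± 0.19 (8.92e-11 and 1.01e-08). MXD3 changed by -1.07 ± 0.20 and -0.56 ± 0.19 (1.45e-06 and 0.0161), and MNT by -0.82 ± 0.21 and -0.52 ± 0.19 (0.000814 and 0.0243). With siβ-catenin and inhibitor in BRCA2-deficient cells, MXD4 (-1.70 ± 0.19), MXI1 (-1.10 ± 0.19) and MNT (-0.70 ± 0.18) were called lower, as were MYC and 11.5% of all genes, and MXD3 was not (-0.13 ± 0.24, adjusted p = 0.752). MXD1 was not called in any of the 3 (-0.12, -0.32 and -0.22), and neither was MGA, another partner of MAX (0.04, 0.11 and 0.01).

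**Figure D5:**
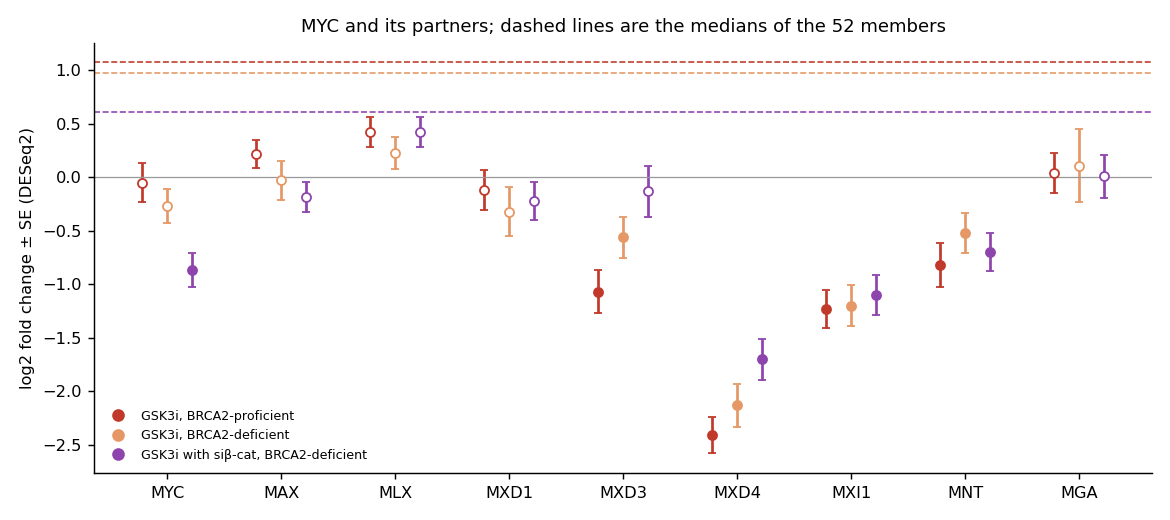
DESeq2 log2 fold changes ± SE of MYC, MAX and their partners with GSK3 inhibitor, first for BRCA2-proficient cells, then for BRCA2-deficient cells with control siRNA and with siβ-catenin, with filled points for called changes and dashed lines for the medians of the 52 members (1.08, 0.98 and 0.61). MXD4 shows the lowest values (-2.41, -2.13 and -1.70), and MYC is below 0 in all 3.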

How the data were processed

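Poly(A)-selected mRNA of 22 libraries was sequenced after TruSeq Stranded preparation. The deposited table holds raw read counts per gene, made by the authors with HISAT2 2.0.4 alignment to GRCh37, SAMtools 1.4, Picard 1.9.2 duplicate marking and featureCounts 1.5.0, per the submitters' processing notes. The study's methods describe the duplicate reads as removed before counting. Which annotation release was used, and whether counting was strand-specific, is not given in the sources used here. Library totals were 18938266 to 29280122 counts, which sets the precision of low genes.

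Each comparison was fitted on its own groups with DESeq2 1.42.0 (R 4.3.3, two-sided Wald test), after genes with fewer than 10 counts in more than 3 of its libraries were dropped. Interaction models used 4 groups and genes with at least 10 counts in 3 libraries. A gene was called at a Benjamini-Hochberg adjusted p under 0.05 over all genes tested and a log2 change beyond 0.5. Errors after ± are DESeq2 standard errors. Replicates are described as independent experiments, and p-values weigh each fitted change against the spread between these libraries as the model estimates it. The alternatives were edgeR 4.0.16, TMM, total-count and upper-quartile factors, no filter, 1 model over all groups, a replicate block, a test against a log2 change of 0.5, and leaving out each library. Scripts were tested on simulated data.

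Over the 2000 genes most variable within groups, with a mean of at least 50, same-numbered libraries deviated together in every comparison with 3 pairs (lowest correlation 0.138). The main fits have no term for the number, so their p-values leave this pairing out. A replicate block was fitted as an alternative. Members and gene lists were chosen with earlier results of these data known. Levels by library are given for the 2 most abundant members of each role group and the called members with the 3 largest changes in each direction of each comparison, and other members only by their change. UBTF was added because it was not called with the inhibitor, and PDCD4 and YPEL2 after their values were seen. Positions are from GENCODE v44 lifted to GRCh37, and promoter windows from RefSeq (GRCh38.p14).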

Additional observations from a re-analysis of the deposited data

Results flagged for a closer look

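In BRCA2-proficient cells, the effect of the GSK3 inhibitor differed between siβ-catenin and control siRNA for 44 of 52 members in the DESeq2 interaction test, all lower with siβ-catenin, against 3.77% of all genes called lower. Of these calls, 3 held without any single library, and edgeR called 0. RRS1 differed by -1.76 (SE 0.41, adjusted p = 0.0027), NOP16 by -1.69 (SE 0.45, adjusted p = 0.00923) and DDX21 by -1.59 (SE 0.39, adjusted p = 0.00513). These values use the 2 libraries numbered 2 whose PDCD4 and YPEL2 levels go against their labels, and their part in the difference was not tested beyond the values without them (3 calls without the one labelled siβ-catenin, 46 without the one labelled inhibitor with siβ-catenin, 35 without both). Without untreated replicate 2 or 3 the count was 7 and 5. In BRCA2-deficient cells the same test called 1 member, BOP1, at -0.80 (SE 0.22, adjusted p = 0.0489), against 0.337% of all genes called lower. That call was lost with upper-quartile factors, without a filter, in edgeR (adjusted p = 0.389), with 1 model over all groups and without 11 of the 12 libraries in turn.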

How the results depend on the processing

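No call of a member changed sign under any alternative. Of the members called with GSK3 inhibition, 38 of 50 (BRCA2-proficient) and 24 of 49 (BRCA2-deficient) stayed called under every alternative, as did 2 of 36 with siβ-catenin in BRCA2-deficient cells and 6 of 40 for BRCA2 status with siβ-catenin. Where an alternative leaves 1 library in an arm, that library is assumed to vary like the other groups of the fit. Unless stated, the cause of a changed value was not tested.

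With total-count and upper-quartile factors, the median change with GSK3 inhibition was 0.95 and 0.96 in BRCA2-proficient and 0.87 and 0.86 in BRCA2-deficient cells. The median of all genes moved as well, from -0.00 to -0.13 and -0.12 and from 0.02 to -0.09 and -0.09, to 0.15 and 0.12 for BRCA2 status with siβ-catenin (members -0.62 and -0.64), and to 0.14 and 0.13 for the BRCA2-proficient interaction (39 and 41 calls). For BRCA2 status in untreated cells, the median was -0.02 and -0.01, with 2 calls under total-count factors, and -0.04 both with 1 model over all groups and with the replicate block. For BRCA2 status under the inhibitor, 1 member was called with total-count factors, with upper-quartile factors, with edgeR and with 1 model over all groups. The BRCA2-deficient interaction had 0 calls with upper-quartile factors, without a filter, with edgeR and with 1 model over all groups.

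In edgeR, 0 members were called for siβ-catenin in BRCA2-proficient cells, alone or under the inhibitor, for siβ-catenin alone in BRCA2-deficient cells, for BRCA2 status in untreated cells or under the inhibitor with siβ-catenin, and for the BRCA2-proficient interaction, and 2 for siβ-catenin under the inhibitor in BRCA2-deficient cells. With 1 model over all groups, siβ-catenin in BRCA2-proficient cells gave 9 calls alone and 19 under the inhibitor. A test against a log2 change of 0.5 left 24 calls for GSK3 inhibition and 2 with siβ-catenin in BRCA2-deficient cells, 6 for BRCA2 status with siβ-catenin, 38 for GSK3 inhibition in BRCA2-proficient cells, and 0 in the other 8 comparisons of 2 groups. Leaving out both BRCA2-proficient siβ-catenin libraries numbered 2, an alternative chosen after seeing the data, gave 10 calls and a median of 0.27 for the inhibitor, with 2 libraries against 1 and 1099 of 29308 genes called.

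With the replicate number as a block, siβ-catenin under the inhibitor in BRCA2-proficient cells went from 6 to 26 calls, the BRCA2-deficient interaction from 1 to 5, and siβ-catenin under the inhibitor in BRCA2-deficient cells from 6 to 9, and no other call changed where 3 pairs share numbers. Where libraries share only 2 numbers (correlations of -0.398 to 0.149), the block gave 4 calls in place of 22 for siβ-catenin in BRCA2-proficient cells, 29 in place of 40 for BRCA2 status with siβ-catenin and 45 in place of 44 for the BRCA2-proficient interaction, and for GSK3 inhibition 50 calls with 49 shared. Crossing the numbers of the BRCA2-proficient siβ-catenin libraries, added after seeing the data, gave 12 calls.

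Leaving out 1 library at a time, the median with GSK3 inhibition in BRCA2-proficient cells ranged from 1.04 to 1.08. The calls ranged from 0 to 43 for siβ-catenin and from 1 to 18 for siβ-catenin under the inhibitor in BRCA2-proficient cells, and from 0 to 1 and 3 to 15 in BRCA2-deficient cells. For BRCA2 status they ranged from 0 to 4 in untreated cells (median -0.09 to -0.04), from 1 to 2 under the inhibitor, and from 0 to 5 under the inhibitor with siβ-catenin, where the median ranged from -0.28 to 0.07 and turned positive without BRCA2-proficient replicate 1 (0.01) or 3 (0.07). For the interactions they ranged from 3 to 48 in BRCA2-proficient and from 0 to 2 in BRCA2-deficient cells.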
